A study of Mus musculus with 6 samples.

Results

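Ribosomal protein genes encode the proteins of the cytosolic ribosome, the particle that translates nuclear-encoded mRNAs. Here 50 genes with symbols of that kind were described, out of 18193 genes that had a probe set naming a single gene. They were chosen by symbol: Rpl or Rps followed by a digit, Rplp followed by a digit, or Rpsa, without the Rps6k kinases and without pseudogenes. This took in Rps19bp1, which is no ribosomal protein. Each of the 50 was read by the brightest of its probe sets that name that gene alone. The arrays were Affymetrix arrays of total RNA from undifferentiated mouse embryonic stem cells, 3 arrays of the Dicer +/- line D4 (heterozygous) and 3 of the Dicer -/- line 27H (null). The series title writes the null line as 27H10. Dicer is the enzyme that cuts precursor hairpins into microRNAs and long double-stranded RNA into short interfering RNAs. With 1 cell line for each genotype, an effect of the genotype and one of the line cannot be told apart. Nothing in the labels says that the replicates came from separate cultures, and p-values then measure only the spread between these arrays, which may be technical.

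A ribosome has a large subunit, whose proteins carry the prefix Rpl, and a small subunit, whose proteins carry Rps. The large subunit joins amino acids and holds the tunnel through which the new protein leaves, and the small subunit reads the mRNA. Most of these proteins are needed in 1 copy per ribosome, their mRNAs are among the most abundant in growing cells, and a few genes have a second copy, a paralog, with its own expression pattern. Their mRNAs are known for a run of pyrimidines (C or T) at the very start, called a terminal oligopyrimidine tract, through which the kinase mTOR controls their translation.

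Promoter sequence from RefSeq (mouse build GRCm38.p6, from 250 bases before to 50 bases after an annotated start) was available for 43 of the members, with 51 starts. The windows shown run from 15 bases before the start to 15 bases after it, in the direction of the gene. They set core genes (Rpl38, Rps6, Rps27 and Rpl39) against paralogs described below, of which Rpl22l1 was not called. A further start of Rps27l is not shown, nor are the starts of Rpl22, with longest runs of C or T of 5 and 4. Capitals mark runs of 5 or more C or T.
Rpl38, chr11:114668565-114668594, plus strand: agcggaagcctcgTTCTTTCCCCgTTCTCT
Rps6, chr4:86857353-86857382, minus strand: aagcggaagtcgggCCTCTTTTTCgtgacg
Rps27, chr3:90213634-90213663, minus strand: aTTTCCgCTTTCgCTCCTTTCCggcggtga
Rps27l, chr9:66946071-66946100, plus strand: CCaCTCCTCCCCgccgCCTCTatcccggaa
Rpl39, chrX:37085208-37085237, minus strand: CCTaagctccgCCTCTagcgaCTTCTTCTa
Rpl39l, chr16:10170213-10170242, plus strand: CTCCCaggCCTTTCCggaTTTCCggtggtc
Rpl22l1, chr3:28805493-28805522, plus strand: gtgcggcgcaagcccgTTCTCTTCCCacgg
Rpl7l1, chr17:46782642-46782671, minus strand: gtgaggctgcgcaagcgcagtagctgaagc
In the stretch from 25 bases before to 50 bases after the start, a run of 8 or more C or T on the gene's own strand was found in 33 of the 51 member windows, 64.7%, against 27.2% of 32851 windows over all genes. On the opposite strand the same run was found in 4 of them, 7.84%, against 30.4% of all windows. The letters CCGGAAG, searched on both strands over the whole 300 bases, were in 21 windows, 41.2%, against 8.86% of all windows. The letters TATAAA, searched on both strands in the 50 bases before the start, were in 1, 1.96%, against 3.50%. These matches describe the windows and do not show that a factor binds there.

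Among the members, 48 passed the filter on low values, an intensity of 32 or more on at least 3 of the 6 arrays, as did 12927 genes in all. Rpl3l, a copy of Rpl3 known from striated muscle, did not pass, with intensities of 33.4, 44.8 and 3.71 on the heterozygous arrays and 3.27, 9.87 and 23.9 on the null arrays. Rps16 did not pass either, since its single-gene probe set read 0.840 to 10.9, while a probe set that names Rps16 among several genes read 31888 ± 939 in the heterozygous and 31687 ± 2405 in the null line (SD, n = 3). The symbols also took in Rps19bp1, which encodes a protein that binds RPS19 and is no ribosomal protein. The RefSeq table lists 89 protein-coding genes under the same rule, of which 49 were members, 31 were named only by probe sets that also name other genes, and 9 by no probe set with a symbol.

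Read by their brightest single-gene probe sets, most ribosomal protein genes had nearly the same signal in the null and the heterozygous line. At an adjusted p under 0.05 (limma, Benjamini-Hochberg over the 12927 genes), 1 of the 48 members was higher in the null line and 6 were lower. Over all genes tested 24.5% were higher and 24.3% were lower. A change of at least 2-fold was passed by 0 members upward and 2 downward, Rpl12 and Rpl39l, beside 7.23% and 6.2% of all genes. With arrays centred on the median of all probe sets, Rpl39l (-0.88) was no longer past 2-fold and Rps25 (1.06) was, and 9 members were higher in place of 1. The other called members were Rps25, which was higher, and Rpl7l1, Rps27l, Rpl14 and Rps19bp1, which were lower. The median difference, null minus heterozygous, was -0.02 on the log2 scale over the members and -0.01 over all genes tested. With each gene read only from probe sets whose names lack the suffixes _s_at, _x_at and _a_at, 12 members were lower and 8 passed 2-fold, because dimmer probe sets then stood for the genes. Members without such a probe set, Rpl38 among them, dropped out, so these counts are not out of 48. The 8 included Rpl35 and Rps18, whose dim probe sets passed the filter only through the heterozygous arrays, which fixed their direction. Without the array of null replicate 3, 8 members were higher in place of 1, and without that of null replicate 1, 4 passed 2-fold in place of 2. Leaving out heterozygous replicate 3 raised the latter count to 3.

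**Figure D1:**
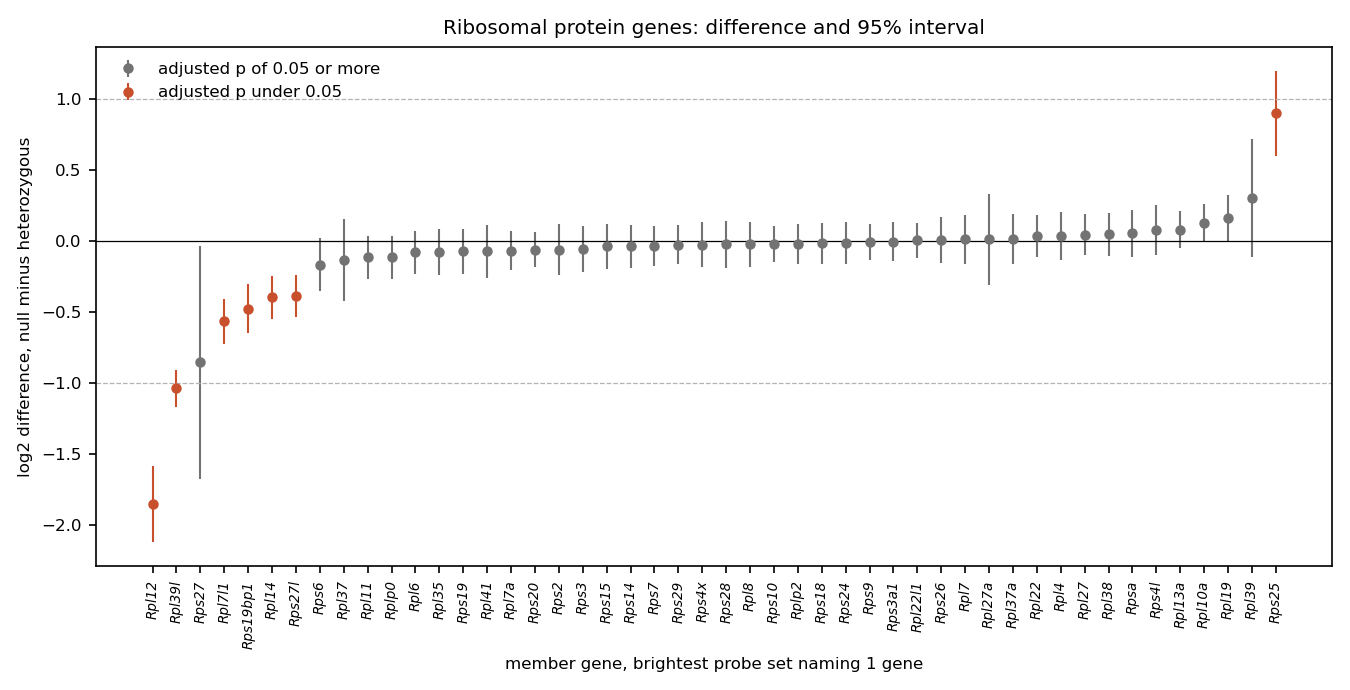
Difference between the lines for each of the 48 members tested, Rps19bp1 among them, null minus heterozygous on the log2 scale, with its 95% interval from limma (3 arrays a line). Most points lie near 0, Rpl12 (-1.85) and Rpl39l (-1.04) lie lowest, and Rps25 (0.90) lies highest.

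Of 25 large-subunit genes tested, 4 were lower, 0 were higher, and the median difference was -0.02, with 12 differences above 0 and 13 below. Of 22 small-subunit genes, 1 was higher and 1 lower, and the median was also -0.02, with 4 differences above 0 and 18 below. The subunits were not tested against each other. For 2 members all null arrays were above all heterozygous arrays, as for 28.3% of all genes tested, and for 7 members they were all below, as for 28.9%. Together these were 9 of 48 members, beside 57.2% of all genes.

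Of the members, 36 had a mean of 14 or more on the log2 scale, a level reached by 135 of the genes tested. These bright members stood at or above the 99.1 percentile of all genes. Their intensities on single arrays ran from 14591 to 40082, where the highest value of any probe set on an array was 36104 to 45902. Whether signals this near the top of an array still follow the amount of mRNA was not tested. Among them were 17 large-subunit genes with a median difference of 0.01 and 19 small-subunit genes with a median of -0.02. Rps27l was the only one of the 36 to be called. The other 35 had differences from -0.11 to 0.16, and the bounds of their 95% intervals ran from -0.27 to 0.33. Of the 99 other genes as bright, 9 were higher and 13 lower in the null line. Probe sets that name a ribosomal protein gene among several genes gave a further reading: 77 of them were this bright, with a median difference of -0.01, a range from -0.20 to 0.15, and 1 with an adjusted p under 0.05 (limma, over 26545 probe sets). Another 30 were dimmer. Of these, 8 were lower and 1 higher at an adjusted p under 0.05, and 5 were lower past 2-fold. Over all probe sets 21.2% were lower, 18.9% were higher and 6.32% were lower past 2-fold. An Rpl30 set among the 5 (-1.42) was under 32 on all null arrays, so the filter fixed its direction.

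The bright members moved together from array to array. The median intensity over the 36 was 30982, 28744 and 29397 on the heterozygous arrays and 30494, 32093 and 27189 on the null arrays. The null line therefore held both the highest and the lowest array. On null replicate 3, 35 of the 36 were under their own mean over the arrays, and on null replicate 2 this held for 2. Null replicate 3 was the lowest array for 31 of them, and for 19.2% of all genes tested. The median SD of a bright member was 0.118 among the null arrays and 0.064 among the heterozygous arrays on the log2 scale, beside 0.149 and 0.140 over all genes.

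**Figure D2:**
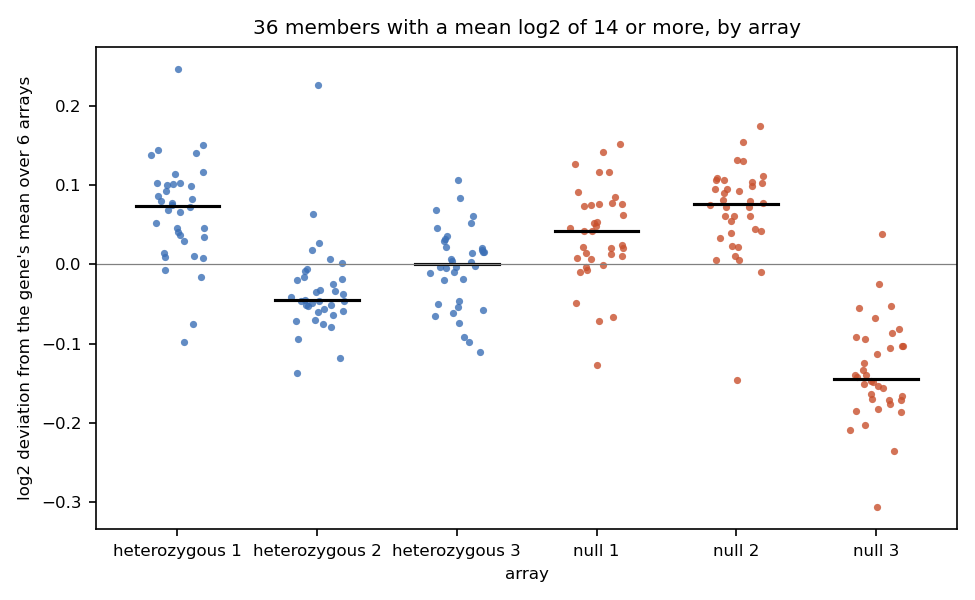
Log2 intensity of the 36 bright members on each of the 6 arrays as the difference from the gene's own mean. Each gene is a point, and a bar marks the median of each array. On null replicate 3, 35 of 36 points lie under 0, and on null replicate 2, 2 do.

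In the core of the large subunit, Rpl38, known for its part in the translation of Hox mRNAs, read 36555, 34075 and 34237 in the heterozygous line and 36859, 38932 and 32835 in the null line. Its null arrays reached both above and below the heterozygous ones, and the difference was 0.05 (limma adjusted p = 0.6004). Rpl10a, a protein of the stalk beside the site where tRNAs leave, read 29070, 29538 and 30725 against 31118, 34647 and 31959. All of its null arrays were higher than all heterozygous arrays, yet the difference of 0.13 had an adjusted p of 0.09723. It was called without null replicate 3 (0.14, adjusted p = 0.04681), with array weights and with arrays centred, and Rpl38 was called with arrays centred (0.20, adjusted p = 0.03996). Rpl11, which with Rpl5 binds MDM2 when ribosome assembly is disturbed, read 26119, 23564 and 23822 against 23937, 23362 and 20669, with overlapping lines and a difference of -0.11 (adjusted p = 0.2052). A dim several-gene probe set that names Rpl11 was lower (-1.71, adjusted p over probe sets = 0.001957). Rplp0 and Rplp2 form part of the acidic stalk that recruits elongation factors. Rplp0 gave 27652, 24676 and 25818 against 25148, 25105 and 21994, and Rplp2 gave 34251, 33547 and 34615 against 34427, 35873 and 30915. Both overlapped between the lines, with differences of -0.11 (adjusted p = 0.2022) and -0.02 (adjusted p = 0.8254). Rplp0 was called lower with quantile normalization (adjusted p = 0.0282).

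In the small subunit, Rpsa, also known as the laminin receptor, read 35575, 32645 and 32784 in the heterozygous line and 37449, 36642 and 31131 in the null line. The lines overlapped through null replicate 3, and the difference was 0.06 (limma adjusted p = 0.5767). Without that array it was 0.14 and Rpsa was called higher (adjusted p = 0.03348), as it was with arrays centred (0.21). Rps19, the gene most often mutated in Diamond-Blackfan anaemia, read 29279, 28514 and 26153 against 28079, 27715 and 24241, a difference of -0.07 (adjusted p = 0.4476). Of 15 genes linked to that anaemia 10 were tested, and 0 of them were called, beside 48.8% of all genes tested. One of them, Rps27, was called without null replicate 1 (-1.40). Rps6, the subunit's main target of the S6 kinases, was read by a dimmer single-gene probe set at 1616, 1606 and 1600 against 1523, 1517 and 1274. Its null arrays were all below the heterozygous ones, and the difference of -0.17 did not pass the test (adjusted p = 0.1322). Rps4x on the X chromosome differed by -0.02 (adjusted p = 0.816).

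The members' chromosomes gave a further comparison. The median difference of all genes tested was 0.31 on chromosome 1 (724 genes) and 0.29 on chromosome 11 (1094 genes). The members on chromosome 1, Rpl7 and Rpl37a, had a median of 0.02, and those on chromosome 11, Rpl19, Rpl27 and Rpl38, a median of 0.05. All of these were among the bright members. The other, dimmer Rpl27 probe sets were higher on all null arrays, by 0.21 and 0.23 (limma adjusted p over probe sets of 0.01306 and 0.007672). Those of Rpl7 differed by 0.10 and 0.05 without being called. Those of Rpl37a differed by -0.0038 and -1.30, the latter called lower. On the X chromosome, which carries Rps4x and Rpl39 among the members, the median of all genes was -0.15 (428 genes) and that of these members was 0.14. Rps4x differed by -0.02 and Rpl39 by 0.30 (limma adjusted p = 0.208). The Rpl39 value came from a dim probe set with overlapping lines, and its bright several-gene probe set differed by -0.02.

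Paralogs were 3 of the 7 members that changed. Of 5 tested genes on a list of copies, 3 were lower in the null line, 0 were higher, and the median difference was -0.39, while 24.3% of all genes were lower and 24.5% higher. The list was drawn up with earlier results of these data known, so its count is a description. Rpl39l, a copy of Rpl39 best known from the testis, whose protein lines the exit tunnel, had intensities of 6580, 6528 and 6738 on the heterozygous arrays and 3135, 3265 and 3273 on the null arrays. The lines were far apart, with means of 6615 ± 109 and 3224 ± 77.7 (SD, n = 3). The difference was -1.04 (SE 0.059, 95% interval -1.17 to -0.91, limma adjusted p = 1.613e-07). Rpl39 itself, on the X chromosome, was read by a dim single-gene probe set at 228, 261 and 273 against 394, 338 and 229. Its lines overlapped through null replicate 3 (0.30, adjusted p = 0.208), and without that array Rpl39 was called higher (0.53, adjusted p = 0.01291). Its bright several-gene probe set differed by -0.02.

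Rpl7l1, a relative of Rpl7, read 4551, 4613 and 5161 in the heterozygous and 3391, 3040 and 3247 in the null line. Every null array was below every heterozygous one, with a difference of -0.56 (SE 0.073, limma adjusted p = 6.97e-05). Its other probe sets were lower as well, by -0.57 for one and by -1.07 for the other, which read 1559, 1613 and 1459 against 800, 747 and 657. Rpl7 differed by 0.01 (adjusted p = 0.9127). Rps27l, a copy of Rps27 and a known target of p53, read 21414, 21117 and 19427 against 16521, 16302 and 14591. The lines did not overlap, and the difference was -0.39 (SE 0.067, adjusted p = 0.0005937). The other Rps27l probe sets fell too, by -0.24 and -0.46 (adjusted p over probe sets of 0.0108 and 0.000927). Rps27 was read by a dim single-gene probe set at 292, 274 and 245 against 319, 124 and 83.8, where null replicate 1 stood above all heterozygous arrays. The difference for Rps27 was -0.85 (adjusted p = 0.0803), it was -1.40 (adjusted p = 0.000371) without null replicate 1, and the bright several-gene probe set differed by -0.09.

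The remaining paralogs did not pass the test with all arrays. Rpl22l1, the copy of Rpl22, read 13364, 13130 and 12731 in the heterozygous line and 12898, 13666 and 12845 in the null line. These overlapped throughout, with a difference of 0.01 and a 95% interval from -0.12 to 0.13 (limma adjusted p = 0.9366). Rpl22, known for its part in lymphocyte development, differed by 0.04 (adjusted p = 0.6848), and by 0.11 without null replicate 3, where it was called (adjusted p = 0.04761). With arrays centred it was called too (0.19). Rps4l, a copy of Rps4x, read 18864, 17771 and 17346 against 20398, 20238 and 16588, again with null replicate 3 lowest, and differed by 0.08 (adjusted p = 0.4539). Without null replicate 3 the difference was 0.18 and Rps4l was called higher (adjusted p = 0.01288), as it was with arrays centred (0.23).

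The rest of the called members had single-gene probe sets far dimmer than those of the bright members. Rpl12, which sits at the base of the acidic stalk, read 899, 931 and 885 on the heterozygous arrays and 288, 212 and 256 on the null arrays. The lines were well apart, with a difference of -1.85 (SE 0.12, limma adjusted p = 4.642e-07). A several-gene probe set that names Rpl12, however, read 35921 ± 1842 against 34488 ± 3203 (SD, n = 3) and differed by -0.06 (adjusted p over probe sets = 0.5455). Rps25, needed for initiation at some viral internal ribosome entry sites, read 814, 940 and 1096 against 1529, 1656 and 2163. All null arrays were higher (0.90, SE 0.14, 95% interval 0.60 to 1.20, adjusted p = 0.0002263), while its several-gene probe set read 20705 ± 781 against 20635 ± 932 and differed by -0.01. Rpl14, a large-subunit protein, read 2773, 2716 and 2716 against 2178, 2124 and 1950, without overlap (-0.39, adjusted p = 0.0006299). Its bright several-gene probe set differed by -0.02. For Rpl12, Rps25 and Rpl14 the difference therefore depended on the probe set that was read. The probe sets naming several genes can take signal from more than 1 gene. Rps19bp1 read 2559, 2698 and 2455 against 1698, 1995 and 1860, with no overlap and a difference of -0.48 (adjusted p = 0.0004223).

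**Figure D3:**
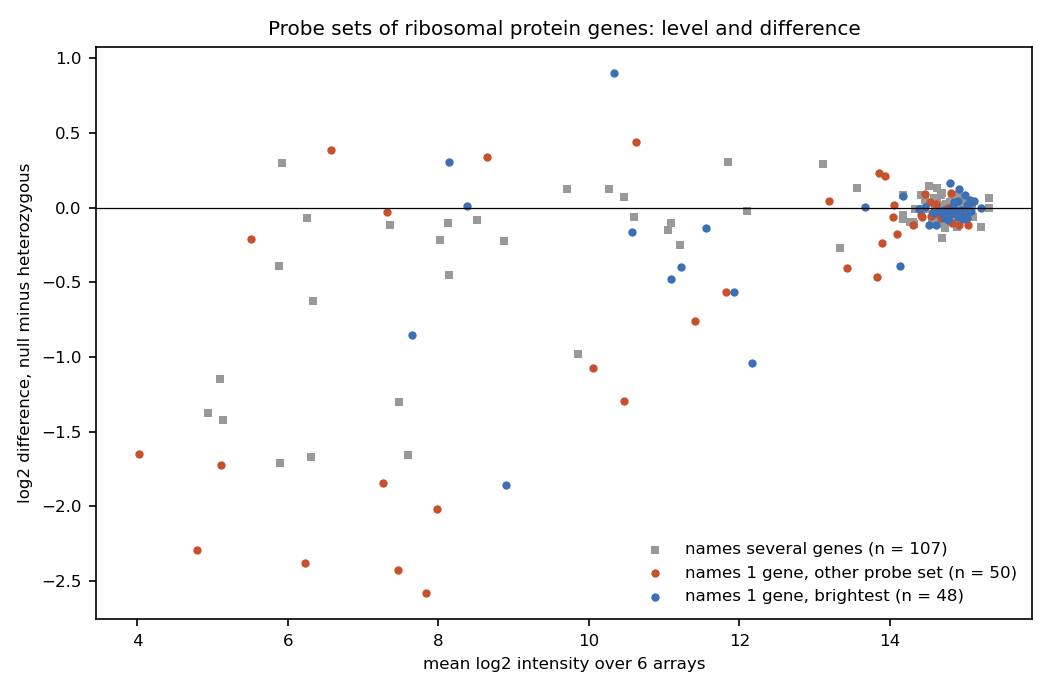
Difference between the lines (null minus heterozygous, log2) against mean log2 intensity for probe sets of ribosomal protein genes and Rps19bp1, those naming a single gene and those naming several. Above a mean of 14 the points lie close to 0 except that of Rps27l (-0.39), and probe sets more than 2-fold from 0 are dimmer.

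The same contrast between probe sets was measured within genes. A group of 14 single-gene probe sets, from 10 members, was dimmer by 4 or more on the log2 scale than the brightest probe set of the same gene. This limit was chosen after the values were seen. Of the 14, 7 were lower in the null line past 2-fold (limma, adjusted over 26545 probe sets), 0 were higher past 2-fold, and the median difference was -1.68. Among probe sets as far under the brightest one of genes outside the members, 9.47% of 1690 were lower past 2-fold and 2.43% were higher, and over all probe sets 6.32% were lower and 5.97% higher. Of all probe sets outside the members that are not the brightest of their gene, 6.35% were lower past 2-fold. Both Rpl35's dim probe set and one of Rps18 were under 32 on all null arrays and passed the filter only through the heterozygous arrays, so the filter fixed their direction. Without probe sets of that kind, 6 of 12 were lower past 2-fold with a median of -1.47, beside 8.05% of 1603 outside the members. The 36 other probe sets of members, which were within that distance, had a median of -0.05, and 1 of them was lower past 2-fold. At an adjusted p under 0.05, 2 of the 36 were higher and 6 lower, beside 18.9% and 21.2% of all probe sets. Probe sets of a gene share their target and are not replicates of each other.

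Rps24, a small-subunit protein, had the largest difference of the 14. Its dim probe set read 566, 568 and 544 on the heterozygous arrays and 96.9, 85.9 and 98.3 on the null arrays, a 5.98-fold fall without overlap (-2.58, limma adjusted p = 4.73e-07). Its brightest probe set differed by -0.01. For Rps9, near the mRNA entry site of the small subunit, the dim probe set read 498, 425 and 327 against 94.3, 65.6 and 72.0. The lines lay far apart (-2.43, adjusted p = 1.004e-05), the brightest Rps9 probe set differed by -0.0049, and a further one by 0.34 (adjusted p = 0.2962). Rpl41, the smallest protein of the ribosome, had a pair of such probe sets, both lower on all null arrays. For Rpl41, the brighter of this pair read 554, 520 and 456 against 138, 138 and 105 (-2.02, adjusted p = 5.331e-06), the dimmer differed by -1.84 after 272, 317 and 288 against 126, 60.9 and 69.8, and the gene's brightest probe set by -0.07.

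The dim probe sets of Rps10 (-2.38), Rpl37a (-1.30) and Rpl35 (-1.72) were also lower past 2-fold. The Rps10 set read 132, 188 and 198 against 73.3, 24.7 and 19.4 (limma adjusted p = 0.002022), the Rpl37a set 2766, 1737 and 2258 against 1208, 796 and 763, and the Rpl35 set 79.2, 60.3 and 51.4 against 12.2, 25.6 and 22.0. In each the heterozygous arrays were above all null arrays, which for the Rpl35 set the filter had fixed. Other dim probe sets did not pass 2-fold. The dim pair of Rps18 differed by -2.29 and -1.65 without passing the test (adjusted p = 0.0526 and 0.2768), and the filter fixed the direction of the former. For Rps20, a dim probe set read 142, 169 and 175 against 182, 146 and 148, overlapped, and differed by -0.03 (adjusted p = 0.9119). Rpl22 had a dim probe set that was higher in the null line (0.44, adjusted p = 0.002589). Rps3, a small-subunit protein that also has DNA repair activity, had a probe set 3.36 under its brightest that read 3547, 3408 and 3704 against 2065, 2111 and 2116 (-0.76, adjusted p = 1.233e-05).

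The difference within a gene was tested on the log2 ratio of each further probe set to the brightest of its gene. Over 10450 such pairs, 1.18% had a lower ratio in the null line at an adjusted p under 0.05 (limma). Among the 50 pairs of members, 3 did, those of Rps24 (-2.57, adjusted p = 0.01888), Rps9 (-2.42, adjusted p = 0.02643) and the brighter dim set of Rpl41 (-1.95, adjusted p = 0.02845), and 0 had a higher ratio. All 3 belonged to the 14 far pairs, while 1.78% of the pairs as far apart outside the members had a lower ratio. With the variance trend taken over the intensity of the dim probe set, 6 of the 14 had a lower ratio, beside 5.56% of the far pairs outside the members and 3.76% of all pairs. Under that trend 2 of the 36 nearer pairs of members had one too, those of Rps3 (-0.70) and Rpl13a (-0.49). Which stretch of the transcript each probe set reads is not given in the sources used here, and its part in the result was not tested.

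**Figure D4:**
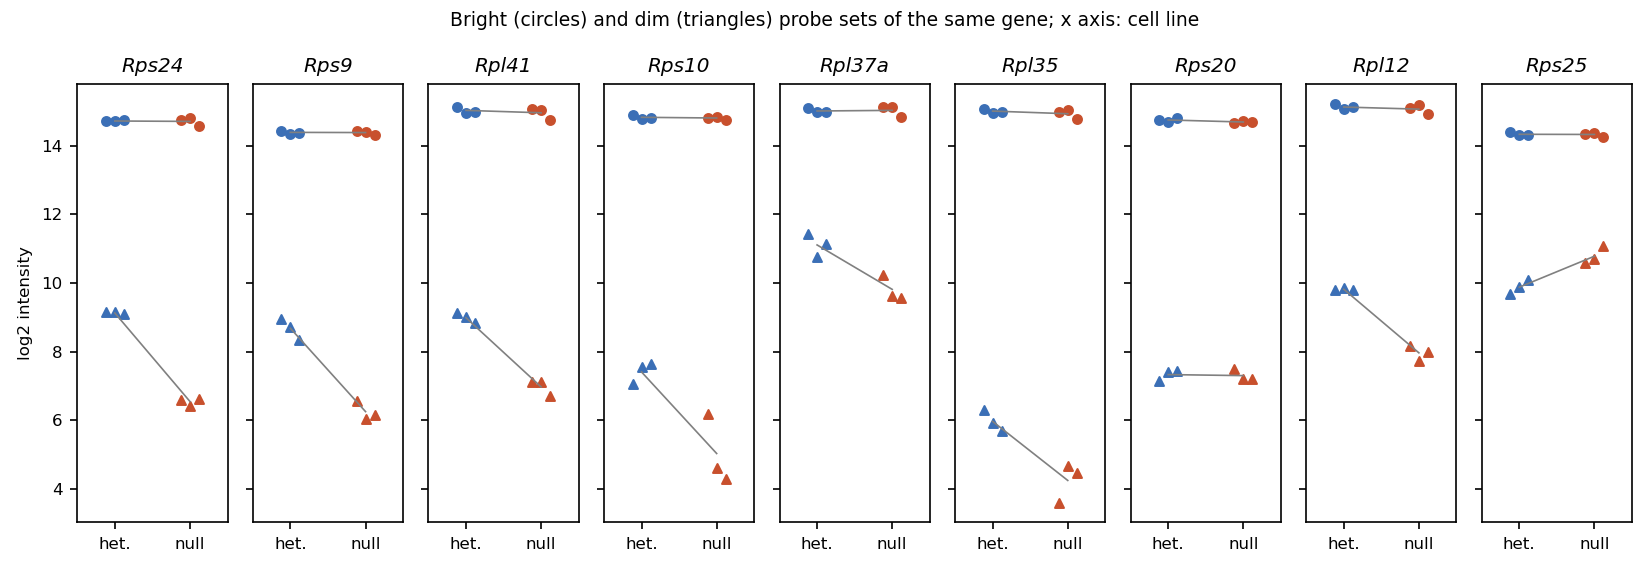
Log2 intensity on each of the 6 arrays of a bright and a dim probe set of the same gene, for ribosomal protein genes picked after their values were seen. For Rpl12 and Rps25 the bright set names several genes and the dim set is the brightest single-gene one. The bright sets stay level between the lines, while the dim sets of Rps24, Rps9 and Rpl41 (the brighter of its pair) are lower on all 3 null arrays. The dim set of Rps25 is higher in the null line, and that of Rps20 overlaps.

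Genes around the ribosome were grouped in lists, for comparison with the members. Of 22 tested genes for translation factors and other mRNAs that begin with a pyrimidine tract, 2 were higher and 4 lower in the null line, with a median of -0.01, beside 24.5% and 24.3% of all genes. The number higher ran from 2 to 9 over the alternative settings and was 9 with arrays centred. Vim, the intermediate filament protein vimentin, was the highest of them (6081 ± 292 against 17628 ± 617, 1.54, limma adjusted p = 1.8e-08), and Eif4a2, an RNA helicase of initiation, was the lowest (-0.81, adjusted p = 1.817e-06). Of 17 regulators of these mRNAs, 0 were higher and 5 lower, and the number higher ran from 0 to 5, with 5 when arrays were centred. Myc, a transcription factor that raises ribosome production, stood at 2096 ± 32.9 against 889 ± 68.7 (-1.24, adjusted p = 3.988e-07), and Mlst8, a subunit of the mTOR complexes, differed by -0.87 (adjusted p = 0.0007143).

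Among genes that make ribosomal RNA and assemble ribosomes, more were lower than higher. Of 51 tested assembly genes, 30 were lower and 6 higher, with a median of -0.32, beside 24.3% lower and 24.5% higher among all genes. Over the alternative settings the number lower ran from 24 to 34 and the number higher from 3 to 11. Nolc1, a nucleolar phosphoprotein, stood at 6137 ± 285 against 3214 ± 155 (SD, n = 3; -0.93, limma adjusted p = 7.88e-07), and Nop10, of the particles that place pseudouridines, at 21001 ± 316 against 11145 ± 938 (-0.92, adjusted p = 1.094e-06). Of 15 genes for transcription of ribosomal RNA, 8 were lower (4 with arrays centred) and 2 higher, with a median of -0.21, led by the RNA polymerase I subunit Cd3eap (-0.92) and the initiation factor subunit Taf1a (-0.83). The 8 host genes of small nucleolar RNAs, several of which also start with a pyrimidine tract, had a median of -1.18, with 6 lower, 4 of them past 2-fold, and 1 higher. Snhg3 fell from 2480 ± 126 to 379 ± 8.70 (-2.71, adjusted p = 2.081e-09), and Gas5 was the 1 that was higher (0.55, adjusted p = 0.001618).

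The 76 tested genes of the mitochondrial ribosome, a separate particle, had 22 higher and 26 lower, 2 each past 2-fold, and a median of 0.02. Over all genes tested, 24.5% were higher and 24.3% lower, with 7.23% and 6.2% past 2-fold. With arrays centred on the median of all probe sets 35 of the 76 were higher and 13 lower. Mrpl34 was the lowest (-1.37) and Mrpl38 the highest (1.15) among those called. The same centring raised the median of all genes tested by 0.16, and the medians became 0.13 for the members, 0.15 for the translation factors, 0.04 for the regulators, -0.17 for assembly, -0.06 for ribosomal RNA transcription, 0.17 for the mitochondrial ribosome and -1.02 for the host genes. The signs for the members, the translation factors and the regulators thus turned.

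**Figure D5:**
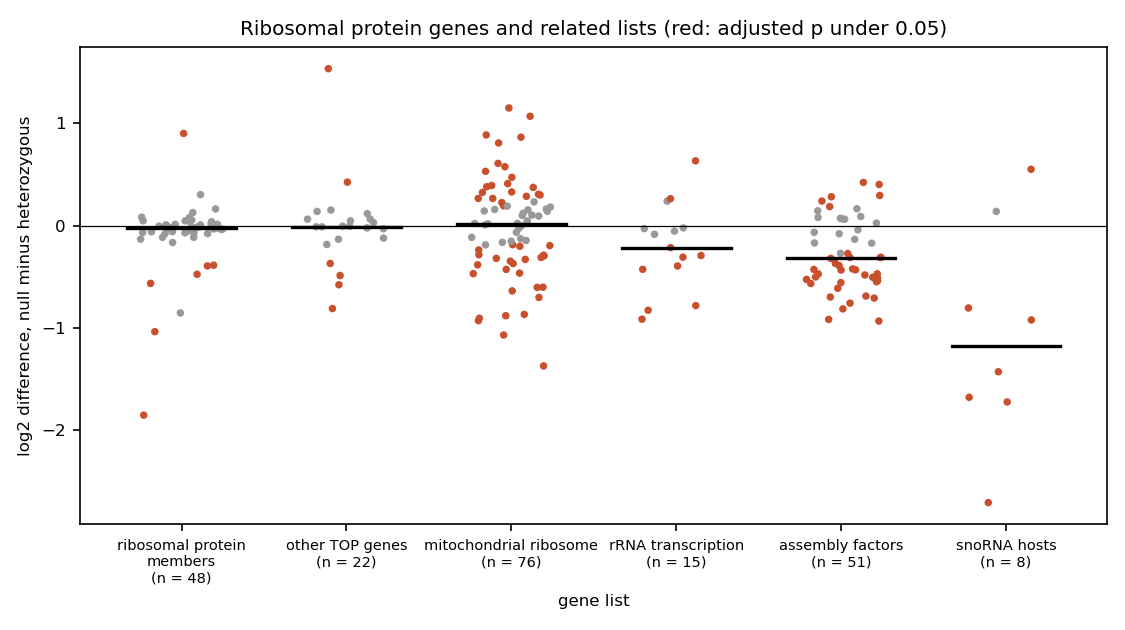
Difference between the lines (null minus heterozygous, log2) for each tested gene of the members and of the related lists. The members have a median of -0.02, the assembly genes of -0.32 and the host genes of small nucleolar RNAs of -1.18.

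The trimmed mean of an array, averaged over the 6 arrays, was 500. That the arrays were scaled to this value is an inference, since the processing is not stated. The 2 Dicer1 probe sets read 1098 ± 39.2 against 1197 ± 62.2 (0.12, limma adjusted p over all probe sets = 0.2645) and 370 against 368 (-0.01, adjusted p = 0.9624), and whether they lie in the deleted stretch is not given in the sources used here. Markers of embryonic stem cells were present: 10 of 10 were tested, 3 were lower, and their summed intensity was 114400 to 120200 on the heterozygous and 103400 to 111700 on the null arrays. Of 10 fibroblast markers, the cells a feeder layer would add, 8 were tested, 1 was higher (Dcn, 31.0 against 263) and 2 were lower (Col1a1, 70.0 against 6.62, and Thy1, 171 against 119). Their sums were 522.5 to 576 and 625.8 to 684.2, and Postn was under 32 on all arrays. On the null arrays Col1a1 was always under 32, so the filter fixed its direction. Of 10 primitive endoderm markers, cells that stem cell cultures can produce, 9 were tested and 4 were lower, with sums of 3463 to 4151 and 1409 to 1622. Beside these counts, 24.5% of all genes tested were higher and 24.3% were lower. The part of these markers in the differences above was not tested. In bulk RNA, fewer cells of a type and less RNA per cell cannot be told apart.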

How the data were processed

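The values were the authors' deposited linear intensities for 45101 probe sets on 6 arrays, in a table whose scale and processing are not stated. GCRMA is the only tool named per the submitters' processing notes, without its role or version. The members and lists were chosen with earlier results of these data known. The deposited intensities were taken to log2, and 64 control probe sets were left out. Probe sets were named from the platform annotation: 34945 name 1 gene, 932 several and 9160 none. A gene was read by its brightest single-gene probe set and kept at a log2 of 5 (intensity 32) or more on at least 3 arrays. The lines were compared with limma 3.58.1 in R 4.3.3 (lmFit, eBayes with a trend, Benjamini-Hochberg at 0.05) over 12927 genes, and again over 26545 probe sets. All differences are null minus heterozygous. Intensities of different probe sets are not compared as transcript levels, and precision is limited by having 3 arrays a line. On simulated data for 12927 genes with 3 arrays a line, log2 changes of 0.25, 0.5, 1 and 2 were called in 16%, 38%, 76% and 88% of genes, and 8 of 12727 unchanged genes were called. Only 50 genes, of any intensity, were changed by each size, while 48.8% of genes were called in the data. These shares therefore do not give the recovery in the data or for the bright members. Named members were those called, those past 2-fold, paralogs with the gene copied, X-linked members and genes of known roles; for other lists, up to 2 called genes with the largest difference.

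Alternatives were other filters, normalization, centring, choice of probe set, variance models, a replicate block and each array left out. The ratio of probe sets, the limit of 4 for dim ones, the leaving out of Rps19bp1 or of dim probe sets under 32 on all arrays of a line, and the several-gene probe sets were added after seeing the data. Probe sequences and protein sequences were not used here.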

Additional observations from a re-analysis of the deposited data

How the results depend on the processing

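The 7 called members kept their direction under the alternatives run for them (19 each, and 18 for Rps27l, which has no probe set without the suffixes): Rpl39l ranged from -1.08 to -0.88, Rpl12 from -1.95 to -1.70, Rpl7l1 from -0.73 to -0.41, Rps27l from -0.43 to -0.23, Rpl14 from -0.44 to -0.24, Rps19bp1 from -0.53 to -0.32 and Rps25 from 0.75 to 1.06. The median over the members became 0.13 with arrays centred on the median of all probe sets and -0.39 without probe sets ending in _s_at, _x_at or _a_at. It ran from -0.06 to 0.03 with 1 array left out. Without the suffixed probe sets, members with no other probe set dropped out, and the filter fixed the direction of Rpl35 and Rps18. The count of higher members, 1, became 2 with quantile normalization, with the mean over probe sets or with the probe set of the second highest mean, 3 with array weights and 9 with arrays centred, and ran from 1 to 8 with 1 array left out (8 without null replicate 3). The count of lower members, 6, became 14 with the mean over probe sets and 12 without the suffixed probe sets, ran from 6 to 7 with 1 array left out, and was 5 without Rps19bp1. The count past 2-fold, 2, became 3 with the mean over probe sets or a threshold of 1.5-fold, 8 without the suffixed probe sets, and 2 to 4 with 1 array left out. It stayed at 2 with arrays centred, with Rps25 in place of Rpl39l. Centring turned the sign of 24 of 48 members, of which 0 were called in either setting, and put 40 above 0. Deviations of same-numbered arrays correlated only weakly (0.03, 0.03 and 0.08), though more than those of arrays with unlike numbers (-0.05 to 0.01). The numbers were not taken as pairs in the main fit. With the replicate block 2 members were higher, 7 lower and 2 past 2-fold, with a median of -0.02, and Rps27 was called (adjusted p = 0.01446). The scaling of arrays, which is not stated, limits what can be said of the bright members, since a shift of all of them and of the array cannot be told apart.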
